A study of Mus musculus with 8 samples.

Results

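The genes described here encode the secreted and membrane-bound metalloproteinases of the extracellular matrix, the related ADAM and ADAMTS proteases, and the 4 tissue inhibitors that block them. They were chosen by name: every gene whose official symbol begins with Mmp, Adam, Adamts or Timp followed by a digit. The RefSeq gene table holds 80 such genes (23 Mmp, 34 Adam, 19 Adamts and 4 Timp), and 70 of them had at least 1 probe on the arrays. Of these, 44 were tested, among 20137 tested genes and unnamed probes in all: 11 Mmp, 16 Adam, 13 Adamts and the 4 Timp genes. The other 26 were too dim: Adam12, Adam18, Adam1b, Adam22, Adam24, Adam29, Adam32, Adam39, Adam4, Adam5, Adam6a, Adam7, Adamts12, Adamts13, Adamts16, Adamts20, Mmp10, Mmp12, Mmp1a, Mmp20, Mmp21, Mmp24, Mmp25, Mmp28, Mmp7 and Mmp8. For 19 of the 26 no probe was well above background on any array, and for none was a probe well above background on more than 3 of the 8 arrays. The 10 genes for which no probe was matched, Adam10, Adam20, Adam26b, Adam3, Adam34, Adam34l, Adamts17, Adamts6, Mmp1b and Mmp27, were not analysed here.

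The hearts came from 9-week-old male C57BL/6J mice, an inbred laboratory strain. In the fasted group (n = 4) food was withdrawn for 2 days while water stayed available, and the satiated group (n = 4) was not treated. All mice were kept on the same pellet diet. Total RNA of each heart was labelled with the dye Cy3 and hybridised to 1 one-colour Agilent array, and the comparison asks how transcript levels in the heart differ after a 2-day fast.

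Matrix metalloproteinases are zinc enzymes that cut collagens, proteoglycans and other matrix proteins. They are made as inactive precursors, and several are anchored in the cell membrane. ADAM proteases sit in the membrane and release the outer parts of growth factors, cytokines and adhesion proteins, whereas ADAMTS proteases are secreted, bind the matrix and cut proteoglycans, procollagens and other matrix proteins. The TIMP proteins bind the active site of these enzymes and so set how much matrix is degraded. In the heart these families are known from matrix remodelling after infarction and under pressure load.

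Levels below are log2 signals minus the 75th percentile of the same array, so a value of 0 is the signal at that percentile. Differences are log2 fold changes, fasted minus satiated, with the standard error (SE) of limma's fit. A gene is called changed at an adjusted p under 0.05, with Benjamini-Hochberg adjustment over all 20137 tested genes and probes. Probes differ in how strongly they bind, so levels of different genes are not set against each other. Between 54.4% and 68.9% of the probes were well above background on an array and no spot was saturated. The arrays lay on 2 slides, each with 2 fasted and 2 satiated hearts, and the slides differed in background. The number of arrays limits the precision. All 10 cardiomyocyte markers were tested, and 1 passed: Actc1, the cardiac actin, fell by 1.64 ± 0.13 on the log2 scale (limma adjusted p = 0.000353). The other 9 did not pass, among them Pln at -0.42 ± 0.14, whose groups did not overlap. Satiated replicate 1 stood apart in markers of fast skeletal muscle. Actn3, for example, lay between -4.35 and -3.28 in fasted hearts, against 3.58 in satiated replicate 1 and -4.25 to -3.63 in the other satiated hearts. Tnnt3, Mylpf, Pvalb, Myh2 and Tnni2 were likewise highest in that heart of all 8. Acta1, Atp2a1 and Myh4, the other tested markers of skeletal muscle, were not. Myh4, for example, was 7.64 there, against 7.24 to 7.88 in the other hearts. A marker this bright in all 8 hearts says little about skeletal muscle in 1 of them, and what its probe binds was not tested. Without satiated replicate 1, 10 of the 11 genes called below passed, the exception being Adamts10. The part of this heart in the results was not otherwise tested.

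Of the 44 tested genes 11 passed the test, 4 higher and 7 lower in the fasted hearts. Mmp3, Timp1, Adam8 and Mmp14 rose, and Mmp15, Adamts7, Adamts8, Adamts19, Adam17, Mmp23 and Adamts10 fell. The share called was 25% of the members against a background of 20.2% of all tested genes and probes, so the number of members called lies near that of the array as a whole. For rising genes the background was 9.84% and for falling genes 10.3%. The fasted and satiated values did not overlap for 13 of the 44 genes (29.5%), against 27.6% of all tested genes and probes. The median change was -0.03 over the 44 genes and -0.0041 over all. All but 1 of the 44 were well above background on at least 2 arrays of each group. The exception, Mmp13, passed the filter through the satiated group, where it was well above background on all 4 arrays. Changed members thus lie in both directions in the Mmp family (2 higher, 2 lower of 11) and in the Adam family (1 higher, 1 lower of 16), whereas all 4 called Adamts genes of 13 were lower and the 1 called Timp gene of 4 was higher. Whether these families differ from one another was not tested.

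**Figure D1:**
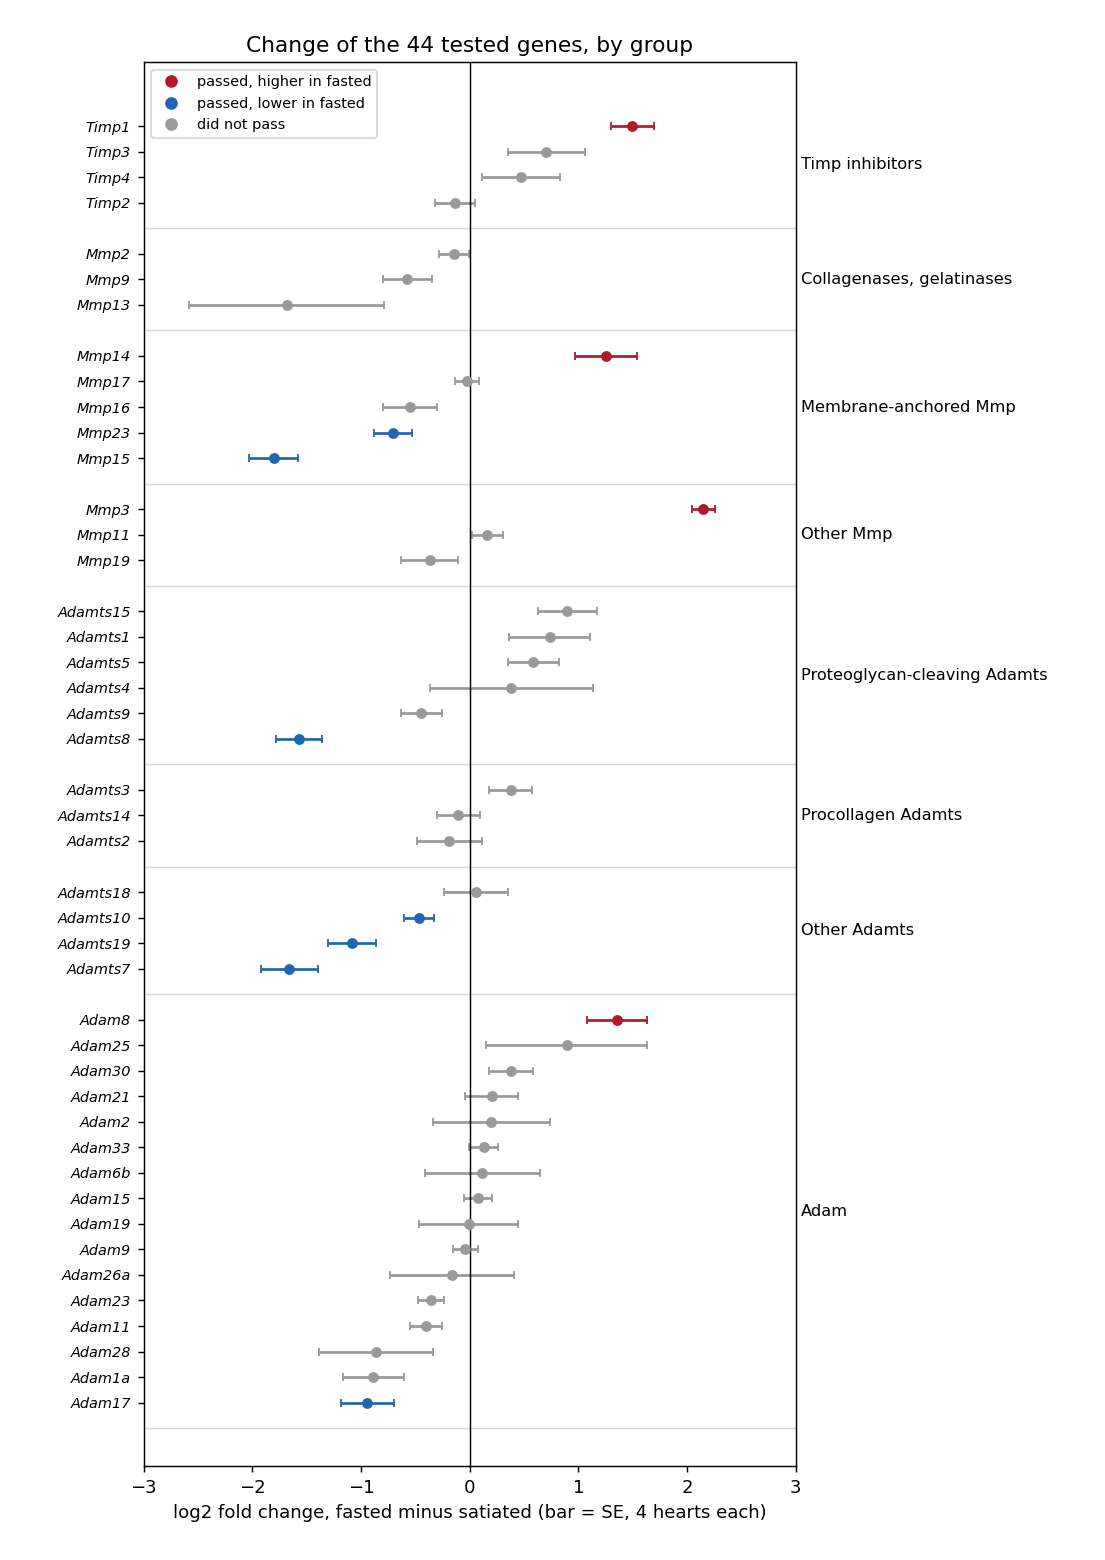
Log2 fold change, fasted minus satiated hearts (horizontal axis), of each of the 44 tested genes, grouped by role. Points are limma estimates from 4 hearts per group, bars are standard errors, red and blue mark the 4 higher and 7 lower genes that passed the test, and grey marks the rest. Mmp3 lies farthest to the right at 2.15, and Mmp15 farthest to the left at -1.80.

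Timp1, an inhibitor of most matrix metalloproteinases that is known to be induced by cytokines and growth factors, was higher in every fasted heart. Its levels were 2.72, 2.55, 2.38 and 2.37 in the fasted hearts, replicates 1 to 4, against 1.17, 1.45, 0.57 and 0.86 in the satiated hearts. The lowest fasted value was above the highest satiated one. The gene averaged 2.51 ± 0.17 in fasted and 1.01 ± 0.38 in satiated hearts (SD, n = 4 each), a log2 fold change of 1.496 ± 0.199 or 2.82-fold (limma adjusted p = 0.00239). A separate Timp1 probe gave 1.72 ± 0.20 (limma adjusted p = 0.00135 in a fit of all kept probes).

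None of the other 3 inhibitors passed. Timp2, which besides inhibiting takes part in the activation of pro-MMP2 by MMP14, had 3.74, 4.12, 4.27 and 4.18 in fasted hearts, against 4.14, 3.83, 4.52 and 4.35 in satiated hearts. These ranges overlap almost fully (-0.13 ± 0.19, adjusted p = 0.669). Timp3, the inhibitor that binds to the matrix and also blocks ADAM17, had 4.87, 4.87, 5.93 and 5.21 in fasted hearts, against 4.82, 3.69, 5.15 and 4.40 in satiated hearts. Each fasted value lay above the satiated value of the same replicate number, although the groups overlap (0.70 ± 0.35, limma adjusted p = 0.203). With the replicate number as a block, Timp3 passed (limma adjusted p = 0.0492), and with the slide as a block it did not (0.106). Timp4, the inhibitor known for its high expression in heart, had 2.798, 3.12, 2.22 and 2.58 in fasted hearts, against 2.90, 1.33, 2.69 and 1.90 in satiated hearts. The satiated hearts spread over a wider range than the fasted ones (0.48 ± 0.36, adjusted p = 0.401).

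Mmp3, or stromelysin 1, cuts proteoglycans, laminin and fibronectin and can activate other metalloproteinase precursors. It showed the largest change of the 44 genes and the smallest p. Its levels were 2.33, 2.40, 2.32 and 2.38 in fasted hearts, against 0.17, 0.28, 0.33 and 0.04 in satiated hearts. Both groups were tight and far apart, with means of 2.36 ± 0.04 and 0.21 ± 0.13 (SD, n = 4 each). The change was 2.15 ± 0.11, or 4.45-fold (limma adjusted p = 7.8e-05), and the 2 slides gave 2.14 and 2.16.

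Mmp3 lies in a row of 10 Mmp genes on chromosome 9 with no other protein-coding gene between them in the RefSeq table, in the order Mmp13, Mmp12, Mmp1b, Mmp3, Mmp1a, Mmp10, Mmp8, Mmp27, Mmp20 and Mmp7. Probes named here covered 8 of the 10, and 2 were tested, Mmp3 and Mmp13. The genes on either side of Mmp3 were Mmp1b, without a probe, and Mmp1a, which like Mmp10, Mmp12, Mmp20 and Mmp7 was not well above background on any array. Mmp8, a collagenase of neutrophils, was well above background on 1 array. Mmp3 thus was the 1 gene of this row with a signal well above background on all 8 arrays.

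Proximal promoters of several genes in this row share a letter pattern, TGANTCA, which reads the same on both strands. It covers the AP-1 consensus, TGAGTCA or TGACTCA, and also admits other middle bases. The sequences below give the 120 bases before the annotated start of Mmp3, which rose, of Mmp10, which lies in the same row and was not above background, of Mmp13, and of Timp1 for comparison, from RefSeq on build GRCm38.p6. Each is written 5′ to 3′ on the gene's strand with TGANTCA in capitals.
Mmp3, chr9:7445702-7445821, + strand: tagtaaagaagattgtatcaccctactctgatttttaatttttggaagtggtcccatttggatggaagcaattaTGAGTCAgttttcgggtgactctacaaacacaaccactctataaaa
Mmp10, chr9:7502222-7502341, + strand: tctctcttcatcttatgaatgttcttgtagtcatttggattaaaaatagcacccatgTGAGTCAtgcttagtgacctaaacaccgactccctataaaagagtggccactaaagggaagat
Mmp13, chr9:7272394-7272513, + strand: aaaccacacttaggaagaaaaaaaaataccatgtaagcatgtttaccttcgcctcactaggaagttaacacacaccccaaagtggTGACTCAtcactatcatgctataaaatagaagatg
Timp1, chrX:20870046-20870165, + strand: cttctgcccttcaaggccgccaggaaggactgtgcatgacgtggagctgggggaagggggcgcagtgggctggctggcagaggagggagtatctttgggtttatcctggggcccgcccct
The pattern starts 46 bases before the start of Mmp3, 63 before that of Mmp10 and 35 before that of Mmp13, and is not among the 250 bases before the start of Timp1. Over those 250 bases it occurred in 12 of 55 promoter entries of the members (50 genes) and in 6.75% of all 32851 entries. Among the 12, the entries of Adam20, Adam25 and Mmp20 held TGAATCA, so these counts are not of the AP-1 consensus alone. Of 8 entries for 7 of the 11 called genes, 1 held it, that of Mmp3. The pattern is thus present in genes of this row that were not above background here, and its presence is a description of the sequence.

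Mmp13, the main collagenase of the mouse, was not called, and it is described here because of its spread, a choice made after its values were seen. It had levels of -6.21, -6.98, -5.67 and -2.30 in fasted hearts, against -3.66, -3.06, -3.69 and -4.01 in satiated hearts. Fasted replicate 4 had the highest value of all 8 hearts and the other 3 fasted hearts the lowest values. The probe was well above background on 1 fasted and 4 satiated arrays. The change was -1.68 ± 0.90 (limma adjusted p = 0.229), and the slides gave -3.23 and -0.14. Leaving out fasted replicate 4 made it pass (limma adjusted p = 0.00484), whereas normexp, a background correction that pulls dim signals together, gave -0.16 (limma adjusted p = 0.745). The pass without that heart is no support for a change. Mmp13 entered the test through the satiated group, where its mean was higher, and the heart left out was the 1 contrary fasted heart.

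The membrane-anchored metalloproteinases moved in opposite directions: of 5 tested, Mmp14 rose and Mmp15 and Mmp23 fell. Mmp14, or MT1-MMP, a collagenase of the cell surface and the activator of pro-MMP2, had 2.68, 2.84, 2.38 and 2.21 in fasted hearts, against 1.01, 1.99, 0.69 and 1.41 in satiated hearts. All fasted values were above all satiated ones, by the smallest margin between fasted replicate 4 and satiated replicate 2. The change was 1.25 ± 0.28, or 2.38-fold (limma adjusted p = 0.0177), and 1.29 ± 0.23 with the other kept Mmp14 probe (limma adjusted p = 0.00742).

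Mmp15, or MT2-MMP, a close relative of Mmp14, had -0.77, -0.84, -1.36 and -0.35 in fasted hearts, against 0.69, 0.86, 1.14 and 1.19 in satiated hearts. The groups stood more than 1 log2 unit apart. The change was -1.80 ± 0.22, so that the signal was 3.49-fold lower in the fasted hearts (limma adjusted p = 0.00181). Mmp23, a type II membrane protein that is shed from the cell when activated, had -0.72, -0.32, -0.82 and -0.22 in fasted hearts, against -0.01, 0.07, 0.31 and 0.37 in satiated hearts. The groups did not overlap, and the change was -0.71 ± 0.17 (limma adjusted p = 0.0246). The Mmp23 call was lost without satiated replicate 2, 3 or 4 or fasted replicate 1 (limma adjusted p = 0.051 to 0.0722). Mmp16 (MT3-MMP) and Mmp17 (MT4-MMP) did not pass, at -0.55 ± 0.25 and -0.02 ± 0.11. Mmp16 passed with the replicate number as a block (limma adjusted p = 0.0164) and with the slide as a block (0.0434), and was -0.07 with normexp (0.735).

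Neither gelatinase was called, nor was Mmp13, so of 3 tested collagenases and gelatinases 0 passed in limma, and 1 had an unadjusted p under 0.05. Mmp2, or gelatinase A, the gelatinase of fibroblasts, had 1.25, 1.52, 1.70 and 1.49 in fasted hearts, against 1.48, 1.73, 1.55 and 1.78 in satiated hearts. The groups overlap widely (-0.15 ± 0.14, adjusted p = 0.505). Mmp9, or gelatinase B, typical of neutrophils and macrophages, had -4.41, -3.93, -5.04 and -4.71 in fasted hearts, against -3.97, -4.02, -3.997 and -3.81 in satiated hearts. It was well above background on 2 arrays of each group (-0.57 ± 0.22, limma adjusted p = 0.11), and passed without fasted replicate 2 (limma adjusted p = 0.0234), whereas normexp gave -0.04 (0.872). Slide 1 gave -0.18 and slide 2 gave -0.97 for Mmp9, and its other kept probe did not pass (-0.52 ± 0.33). Mmp11 and Mmp19, the remaining tested metalloproteinases, did not pass, at 0.16 ± 0.14 and -0.37 ± 0.26.

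**Figure D2:**
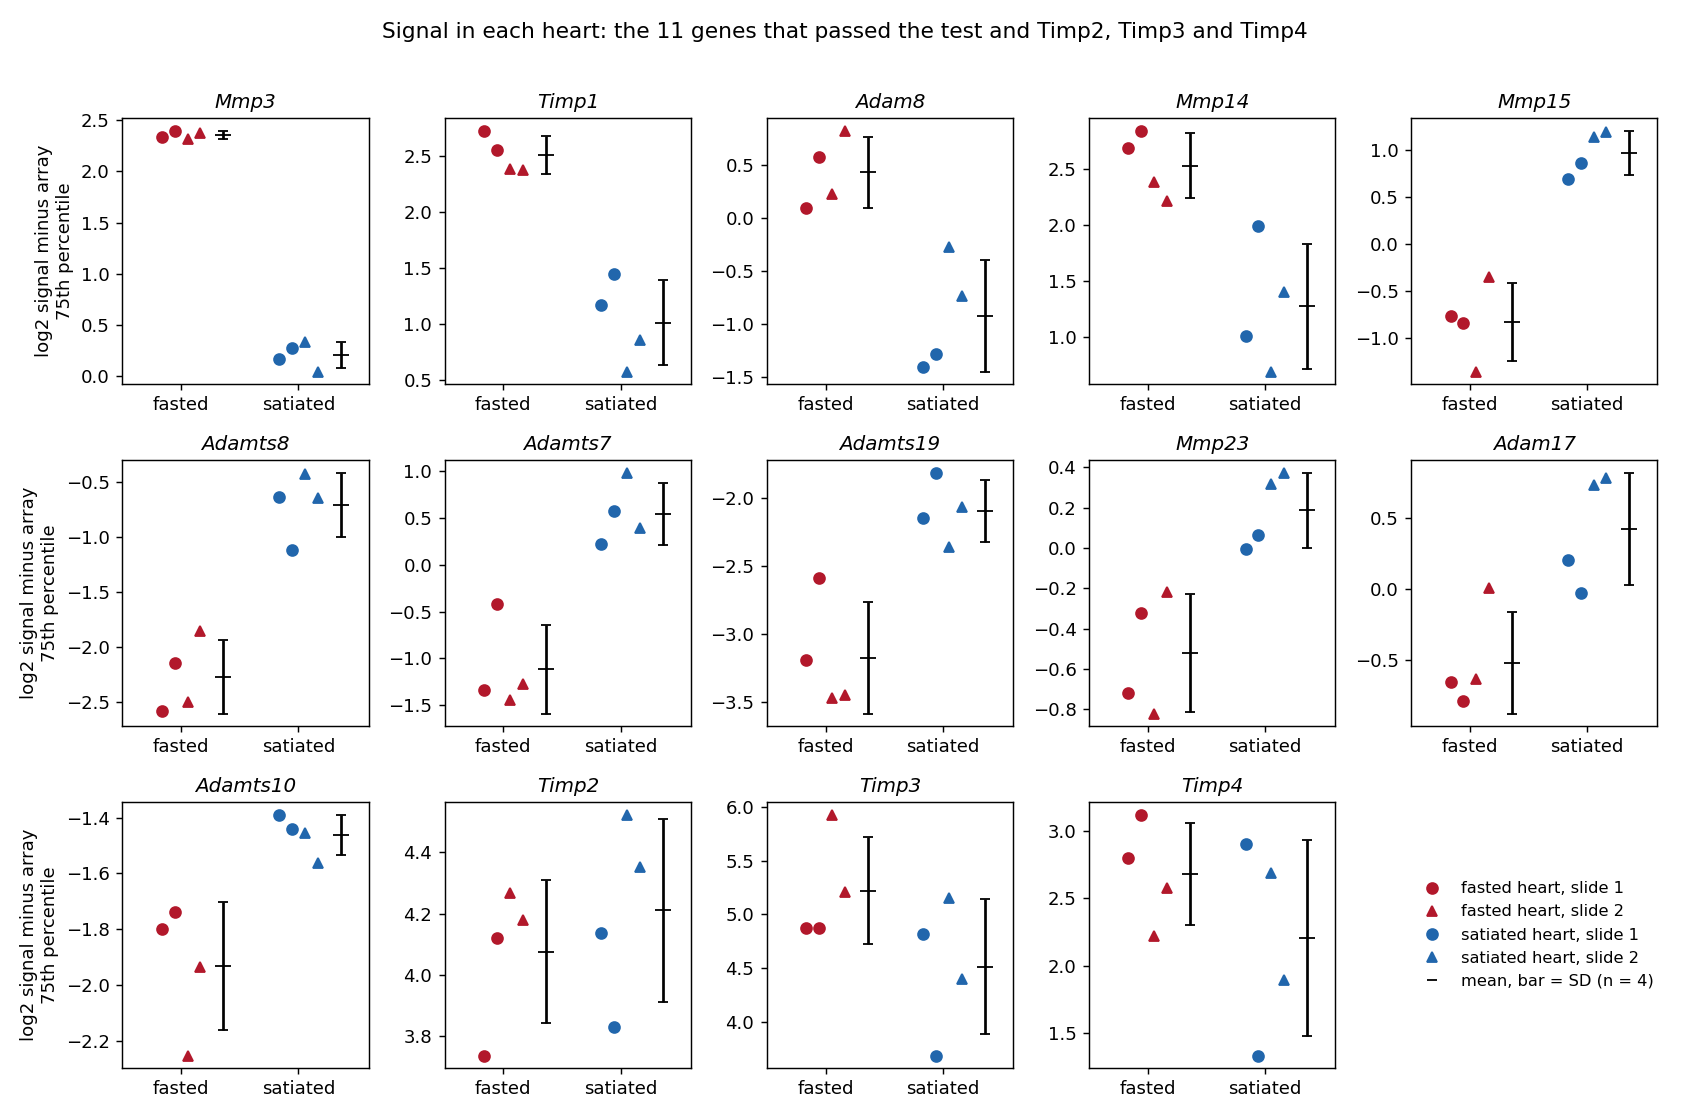
Log2 signal minus the array's 75th percentile (vertical axis, its range set for each gene) in each fasted heart (red) and satiated heart (blue), for the 11 genes that passed and for Timp2, Timp3 and Timp4. Circles lay on slide 1 and triangles on slide 2, and black bars are means ± SD (n = 4). Fasted and satiated values are apart for 10 of the 11 genes that passed and overlap for Adam17, Timp2, Timp3 and Timp4.

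Adamts genes that passed were lower in the fasted hearts. Adamts7, a protease known to cut cartilage oligomeric matrix protein and to act in vascular smooth muscle, had -1.33, -0.41, -1.44 and -1.28 in fasted hearts, against 0.22, 0.57, 0.99 and 0.40 in satiated hearts. Fasted replicate 2 stood closest to the satiated hearts but below all of them. The change was -1.66 ± 0.26, or 3.16-fold lower (limma adjusted p = 0.00437), and -1.70 ± 0.39 with its other kept probe. Adamts8, known as METH-2 for its anti-angiogenic activity, had -2.58, -2.15, -2.50 and -1.86 in fasted hearts, against -0.63, -1.12, -0.42 and -0.64 in satiated hearts. The groups were well separated at -1.57 ± 0.21, or 2.97-fold lower (limma adjusted p = 0.00248).

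Adamts19, whose loss is known to cause heart valve disease, had -3.19, -2.59, -3.48 and -3.45 in fasted hearts, against -2.15, -1.81, -2.36 and -2.07 in satiated hearts. All fasted values were below all satiated ones (-1.08 ± 0.22, 2.12-fold lower, limma adjusted p = 0.0119). With normexp background correction the change was smaller, at -0.58 (limma adjusted p = 0.0176). Adamts10, which binds fibrillin, had -1.80, -1.74, -2.25 and -1.94 in fasted hearts, against -1.39, -1.44, -1.45 and -1.56 in satiated hearts. The groups did not overlap, but the change of -0.47 ± 0.14 was small and close to the threshold (limma adjusted p = 0.0463). Its call was lost without any 1 of 7 of the 8 arrays, the exception being fasted replicate 2 (limma adjusted p = 0.0531 to 0.107). Its other kept probe did not pass (-0.36 ± 0.14).

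Among the 6 tested Adamts proteases that cut proteoglycans such as versican and aggrecan, Adamts8 fell and 5 did not pass. Adamts15 had 1.06, 1.71, 2.31 and 1.21 in fasted hearts, against 0.69, 0.94, 0.43 and 0.64 in satiated hearts. No fasted value overlapped the satiated ones, and the adjusted p fell just short of the threshold (0.90 ± 0.27, limma adjusted p = 0.050001). It passed without fasted replicate 1 (limma adjusted p = 0.039), with normexp (0.0489), with quantile normalization (0.0447), among probes well above background on all 8 arrays (0.0349) and with the slide as a block (0.0445), but not with the replicate number as a block (0.0594). Adamts5, a main aggrecanase, had 2.45, 2.95, 2.51 and 2.13 in fasted hearts, against 2.05, 2.37, 1.44 and 1.84 in satiated hearts. The change was 0.59 ± 0.24 (limma adjusted p = 0.12), and it passed with the replicate number as a block (limma adjusted p = 0.0397), while its other kept probe gave 0.09 ± 0.22.

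Adamts1, an early-response protease that cuts versican, varied widely among the fasted hearts, with 3.50, 1.62, 2.43 and 3.19, against 1.79, 2.06, 1.86 and 2.09 in satiated hearts. Fasted replicate 2 was the lowest of all 8 and the other 3 fasted hearts were the highest. The change was 0.74 ± 0.37 (limma adjusted p = 0.208), and without fasted replicate 2 the gene passed (limma adjusted p = 0.0279). Adamts9, another versican-cutting member, had -0.70, -0.08, -0.36 and -0.31 in fasted hearts, against -0.25, 0.14, -0.01 and 0.45 in satiated hearts. The groups overlap (-0.44 ± 0.19, limma adjusted p = 0.141), and the gene passed with the replicate number as a block (limma adjusted p = 0.0419) but not with the slide as a block (0.0963). Adamts4, the other main aggrecanase, had -2.23, -3.002, 0.50 and -0.84 in fasted hearts, against -2.57, -2.39, -0.92 and -1.22 in satiated hearts. In both groups the hearts on slide 2, replicates 3 and 4, were higher than those on slide 1 (0.38 ± 0.75, adjusted p = 0.777).

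The 3 procollagen N-proteinases, Adamts2, Adamts3 and Adamts14, which trim fibrillar collagens for assembly, ranged from -0.19 to 0.38, and 0 of the 3 passed in limma or had an unadjusted p under 0.05. Bmp1, the procollagen C-proteinase, is an astacin-type enzyme outside these families. It had 0.35, 0.64, 0.43 and 0.65 in fasted hearts, against 1.13, 1.19, 1.17 and 1.32 in satiated hearts, without overlap. It fell by 0.68 ± 0.12 on the log2 scale (limma adjusted p = 0.00645).

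Of the 16 tested Adam genes, Adam8 rose and Adam17 fell. Adam8, a protease of leukocytes that is also induced in inflamed tissue, had 0.09, 0.58, 0.23 and 0.83 in fasted hearts, against -1.41, -1.28, -0.27 and -0.73 in satiated hearts. The groups did not overlap, with the satiated hearts of slide 2 closer to the fasted ones than those of slide 1. The change was 1.36 ± 0.28, or 2.56-fold (limma adjusted p = 0.0127), with 1.68 on slide 1 and 1.03 on slide 2.

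Some markers of neutrophils were higher in the fasted hearts as a group, though not in every fasted heart. Of 10 such markers 6 were tested and 3 rose, Retnlg (3.64 ± 0.32), S100a8 (1.32 ± 0.34) and S100a9 (1.25 ± 0.37), the last not with the replicate number as a block (limma adjusted p = 0.0684). Retnlg was dim in the satiated hearts, at -5.87, -5.56, -5.66 and -6.38. A probe of Adam12, not above background on any array, read -6.52 and -6.48 in satiated replicates 3 and 4. The size of the Retnlg change is therefore uncertain. The granule genes Mpo (-0.12 ± 0.32) and Ltf (4.31 ± 1.47, limma adjusted p = 0.0744) and the receptor gene Csf3r (0.03 ± 0.42) did not pass. For S100a8 and S100a9 the groups overlap. In fasted replicate 3 they were at -2.66 and 0.49, below satiated replicate 3 at -2.63 and 0.67. Adam8 in that fasted heart lay above all satiated hearts. Ltf was at -6.45 in fasted replicate 3 and between -0.11 and 0.32 in the other fasted hearts, against -6.77 to -4.31 in satiated hearts, and it passed with the replicate number as a block (limma adjusted p = 0.0399). The summed signal of the 6, in multiples of the array's 75th percentile, ranged from 1.79 to 6.62 in fasted hearts and from 1.16 to 1.88 in satiated hearts. In such sums the brightest probes weigh most, here S100a9. The granule genes Camp, Ngp and Elane were too dim to be tested, as was Cxcr2. Of 9 tested macrophage markers 1 fell and none rose, and their sums ranged from 27.1 to 35.9 in fasted hearts and from 29.4 to 33.7 in satiated hearts. The part of these cells in the Adam8 change was not tested. In whole hearts, fewer or more cells of a type and less or more RNA per cell cannot be told apart.

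Adam17, the enzyme that releases tumour necrosis factor and ligands of the epidermal growth factor receptor from the cell surface, had -0.66, -0.79, -0.64 and 0.01 in fasted hearts, against 0.20, -0.03, 0.73 and 0.78 in satiated hearts. Fasted replicate 4 lay just above satiated replicate 2, so the groups overlap. The change was -0.94 ± 0.25, or 1.92-fold lower (limma adjusted p = 0.0299), and the other kept probe gave -0.87 ± 0.19 (limma adjusted p = 0.015) with no overlap of the groups. The Adam17 call was lost without fasted replicate 1, 2 or 3 or satiated replicate 3 or 4 (limma adjusted p = 0.0648 to 0.0809).

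Well-known ADAM proteases that did not pass were Adam15, Adam9 and Adam19. Adam15, present in endothelium and muscle, had 2.57, 2.69, 2.96 and 2.49 in fasted hearts, against 2.61, 2.66, 2.57 and 2.56 in satiated hearts, a difference of 0.08 ± 0.13 (adjusted p = 0.731). Adam9, a widely expressed member, differed by -0.04 ± 0.12 (adjusted p = 0.864). Adam19, a protease needed for heart development, had -0.77, -1.38, -2.48 and -0.57 in fasted hearts, against -1.96, -0.79, -1.64 and -0.78 in satiated hearts. The spread within each group exceeded the difference between them (-0.01 ± 0.46, adjusted p = 0.992).

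Both Adam1a and Adam23, the latter a member without protease activity known from neurons, had groups that did not overlap although neither was called. Adam1a had -2.44, -3.05, -3.69 and -2.51 in fasted hearts, against -1.92, -1.96, -1.91 and -2.36 in satiated hearts (-0.89 ± 0.28, limma adjusted p = 0.0578), and it passed without fasted replicate 1 (limma adjusted p = 0.049), among probes well above background on all 8 arrays (0.0408) and with the slide as a block (0.0416), while normexp gave -0.47 (0.051). Adam23 had -4.25, -4.17, -4.11 and -4.02 in fasted hearts, against -3.85, -3.96, -3.74 and -3.58 in satiated hearts (-0.36 ± 0.12, limma adjusted p = 0.0782), and it passed with the replicate number as a block (limma adjusted p = 0.0318), while normexp gave -0.11 (0.535). Adam11, another member without protease activity, had -0.40 ± 0.15 (limma adjusted p = 0.0963) and passed with that block (limma adjusted p = 0.0302) and without fasted replicate 2 (limma adjusted p = 0.0397). With the replicate number as a block, 17 of the 44 genes passed, 6 higher and 11 lower, against a background of 32.1%. With the slide as a block 17 passed as well, against a background of 35.6%, and 15 genes passed with both blocks. Timp3 and Adamts9 passed only with the replicate number and Adamts15 and Adam1a only with the slide.

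The remaining tested members did not pass. Adam2, Adam21, Adam25, Adam26a and Adam30, known mainly from testis, were well above background on 2 arrays of each group. Their changes lay between -0.16 for Adam26a and 0.89 for Adam25, whose SE was 0.74. Adam33, known from smooth muscle and fibroblasts, had 0.13 ± 0.13. Adam28, known from lymphocytes, and Adam6b had -0.86 ± 0.52 and 0.12 ± 0.53, and Adamts18 had 0.06 ± 0.29.

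All 11 called genes changed in the same direction on both slides, as did 38 of the 44 tested (86.4%), against 81.1% of all tested genes and probes. Of all called genes and probes on the arrays 100% did, so this is no result about the members. Among the 11, 8 kept their call when any single array was left out: Mmp3, Mmp15, Timp1, Adamts7, Adamts8, Adamts19, Adam8 and Mmp14. Of the lower genes 4 passed without satiated replicate 3 and 4 without satiated replicate 4. A fit of slide 1 by itself called 7 of the 44, against a background of 9.28%. A limma fit of slide 2 by itself called 0, against a background of 0.00497%, and 15 had an unadjusted p under 0.05 there.

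**Figure D3:**
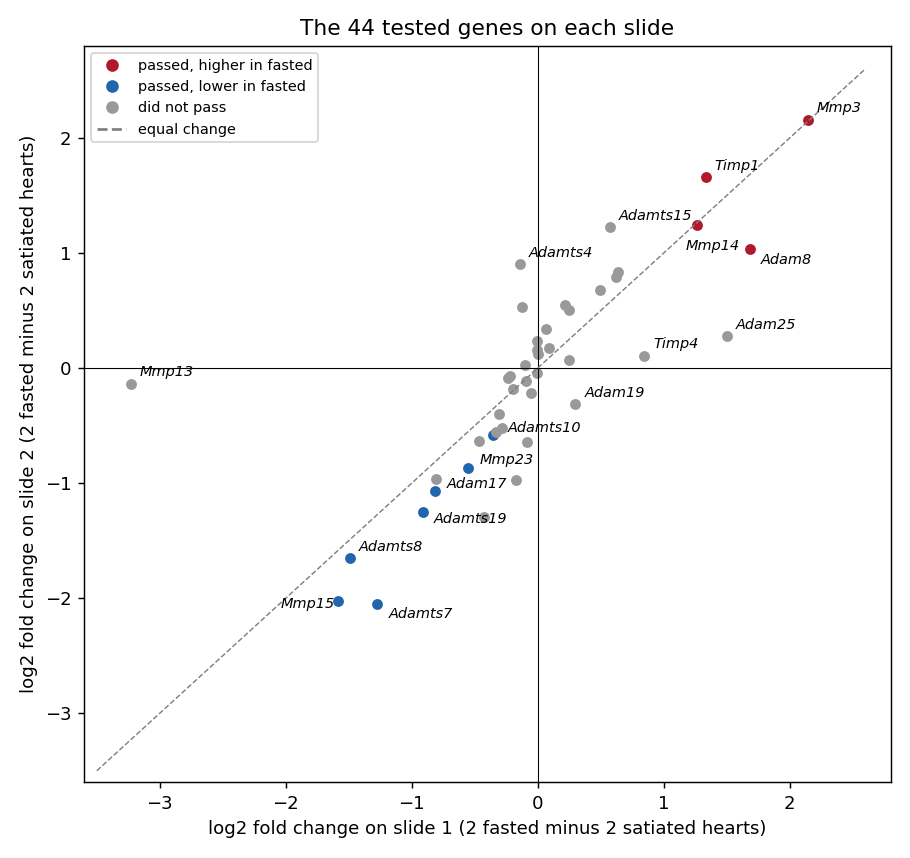
Log2 fold change on slide 2 (vertical axis) against that on slide 1 (horizontal axis) for the 44 tested genes, each from 2 fasted minus 2 satiated hearts, with the dashed line marking equal change. The 11 genes that passed (red and blue) lie at the upper right or lower left, with the same sign on both slides, and Mmp13 lies far to the left at -3.23 on slide 1 and -0.14 on slide 2.

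For 18 of the 44 genes more than 1 probe was kept. The 20 probes that did not represent their gene had the sign of the representative probe in 19 cases, the exception being a probe of Adam19 at 0.22 ± 0.14. Of the 11 called genes 7 had such a second probe, and 6 of those 7 probes were called as well, in a fit of all kept probes. Adamts10 held the probe that was not called. Whether probes also bind related members of these large families was not tested.

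**Figure D4:**
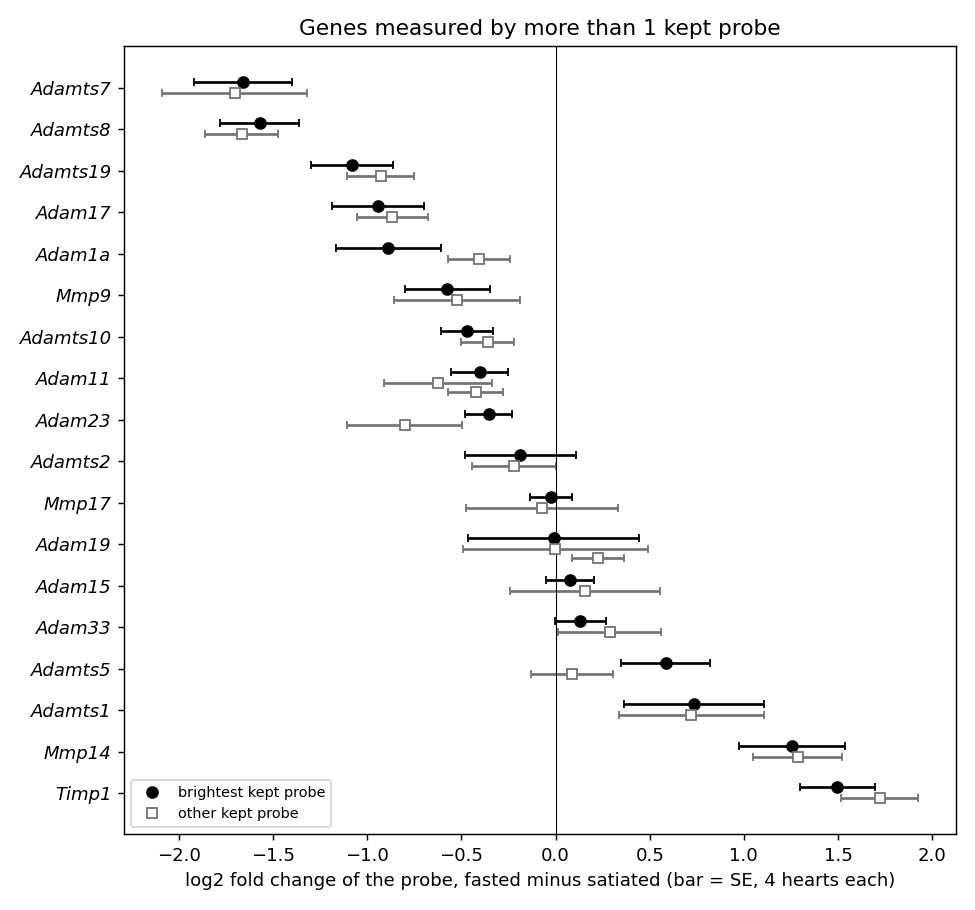
Log2 fold change, fasted minus satiated (horizontal axis), of each kept probe for the 18 genes measured by more than 1. Filled circles are the brightest probe, open squares the others, and bars are standard errors (4 hearts each). Both probes of Adamts7, Adamts8, Adamts19, Adam17, Mmp14 and Timp1 lie on the same side of 0, whereas those of Adamts5 lie at 0.59 and 0.09.

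Proteins that control or activate these enzymes were described from lists. Counts from these and from the marker lists stand beside a background of 20.2% called, 9.84% higher and 10.3% lower. With the replicate number as a block the background was 32.1%. Of 14 tested regulators, among them Reck, a membrane inhibitor of metalloproteinases, and the iRhom proteins that carry ADAM17 to the cell surface, 0 passed in limma and 1 had an unadjusted p under 0.05. Their median change was -0.0058, against -0.0041 over all genes. Sparc, a collagen-binding matrix protein with the smallest p of that list, had 4.11, 4.57, 4.07 and 3.61 in fasted hearts, against 4.86, 5.22, 4.19 and 4.59 in satiated hearts (-0.63 ± 0.26, limma adjusted p = 0.135), and it passed with the replicate number as a block (limma adjusted p = 0.0385), in which 3 of the 14 did.

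Of 12 tested proprotein convertases and plasminogen activation genes 2 rose and 1 fell, against a background of 20.2% called. Furin, which cuts the precursors of MT-MMPs, ADAM and ADAMTS proteases, had 3.64, 3.75, 3.97 and 3.29 in fasted hearts, against 3.09, 3.18, 3.16 and 2.86 in satiated hearts (0.59 ± 0.16, limma adjusted p = 0.0374). Its relative Pcsk5 rose (0.64 ± 0.18) and Pcsk6, which activates corin, the enzyme that processes the atrial natriuretic peptide precursor, fell (-0.85 ± 0.22). The fasted and satiated hearts did not overlap for any of these 3 genes. These calls depend on single arrays: 0 of the 12 passed without fasted replicate 1 or without satiated replicate 3, 1 passed without fasted replicate 2 or satiated replicate 1, 2 or 4, and 2 passed without fasted replicate 3 or 4. With the replicate number as a block 5 passed, against a background of 32.1%.

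Of 13 tested metalloproteinases and related proteins outside the 4 families, Ece1, the endothelin-converting enzyme, rose (0.57 ± 0.12) and Bmp1 fell, as given above. Among 27 tested membrane proteins shed by ADAM proteases and matrix proteins cut by ADAMTS proteases, 6 rose and 3 fell. The background was 9.84% for rising and 10.3% for falling genes and probes. Thbs2, a thrombospondin that binds matrix metalloproteinase 2, rose (2.16 ± 0.23), and Il6ra, an interleukin 6 receptor chain that ADAM proteases release, rose as well (1.13 ± 0.19, and 0.65 with normexp). Comp, the matrix protein cut by ADAMTS7, fell (-1.13 ± 0.14), with 0.56, 0.83, 0.26 and 0.49 in fasted hearts, against 1.72, 1.61, 1.66 and 1.66 in satiated hearts. Cdh2, the N-cadherin of the intercalated disc and a substrate of ADAM10, fell too (-0.78 ± 0.17). The median of that list was 0.16, and 5 of the 27 passed without satiated replicate 1 or 2.

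Fibroblasts are a main source of several of these proteases and inhibitors, and their markers did not move as 1 group. Of 10 tested, 1 rose and 5 fell, with Lum (-1.48 ± 0.17) and Col3a1 (-2.56 ± 0.40) the clearest. The summed signal of the 10 ranged from 518 to 656 in fasted hearts and from 507 to 569 in satiated hearts, in multiples of the array's 75th percentile. The brightest probes, Gsn and Dcn (means of 8.26 and 7.78 in fasted hearts), make up most of this sum. It therefore says little about the other markers. Mesothelial markers, 3 of 8 of them higher, summed to 10.9 to 14.7 in fasted hearts and 5.64 to 9.37 in satiated hearts. Msln, the brightest of them, weighs most in these sums, and it overlapped and did not pass (0.71 ± 0.25, limma adjusted p = 0.0834). Krt19, Wt1, Upk3b and Lrrn4 did not pass either, at 0.62, 0.18, 0.05 and -0.03. Of 10 endothelial markers 0 passed in limma, with 1 at an unadjusted p under 0.05. Of 10 markers of smooth muscle and pericytes 2 fell. Among mast cell markers 2 of 6 rose, and among adipocyte markers 1 of 7 rose. In both lists a marker that did not pass was lower in fasted hearts without overlap. These were the mast cell marker Mcpt4 (-0.87 ± 0.28, limma adjusted p = 0.062) and the adipocyte marker Retn (-1.77 ± 0.62, limma adjusted p = 0.0823). Of 9 skeletal muscle markers 0 passed in limma or had an unadjusted p under 0.05. Satiated replicate 1 was far above the other hearts in Actn3, Tnnt3, Mylpf, Pvalb, Myh2 and Tnni2, but not in Acta1, Atp2a1 or Myh4. The part of these cell types in the changes of Mmp3, Timp1, Mmp14 and the Adamts genes was not tested.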

How the data were processed

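Deposited for each array was the scanner's table of spots, whose intensities are linear. Per the file headers, Agilent's software had removed background within each array, and no scaling across arrays is recorded. Its version was 10.5.1.1 for slide 1 and 10.7.3.1 for slide 2, whereas the submitters' processing notes name 9.1. A deposited table of linear ratios, of which the sources used here do not say how the authors made it, served as an alternative.

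Log2 intensities were centred on each array's 75th percentile. The 1639 control spots of 45018, and outlier spots, were dropped. Spots of a probe were averaged, and a probe was kept when well above background on 4 or more arrays. Probe accessions were looked up in RefSeq's gene table (GRCm38.p6, used for names). The slides carry different issues of the annotation, in which 1782 of 41174 probes differ in accession, and both were used. A symbol was found for 26932 probes, and 10 with several were left unnamed. The brightest kept probe stood for a gene. The test was a two-sided limma fit (version 3.58.1 in R 4.3.3, lmFit and eBayes) without a slide term, tested on simulated data. Figures were drawn with matplotlib 3.10.9.

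Members, lists and tests were chosen with earlier results of these data known. Named were all called members, those with groups that did not overlap, the 4 Timp genes and a set list of well-known members where tested. Of each pathway list up to 4 called genes with the smallest p were named, or 1 gene where no call was made, and of each marker list at most 2. Mmp13, Adam11 and Mmp16 were added after their values were seen, and other members and markers named in passing, which complete their groups, were too. The labels number the hearts of a group and do not say how they were sampled, so p-values measure only the spread between these samples. Same-numbered hearts of the groups deviated together from their group means (r = 0.44, 0.47, 0.33 and 0.49 for replicates 1 to 4), so the number was also fitted as a block, although hearts of different number on the same slide did so as well (r = 0.29 to 0.52). Other alternatives left out 1 array at a time or changed background correction, centring, filter, probe choice, weights or slide handling.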

Additional observations from a re-analysis of the deposited data

Results flagged for a closer look

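In 56 groups of 4 hearts, from 28 genes, 2 held a heart far from the other 3 (a gap, as a share of the group's range, above Dixon's critical value), and chance gives about 1 in 20. For Adamts7, fasted replicate 2 had a level of -0.413, while the other fasted hearts lay between -1.44 and -1.28. For Adam1a, satiated replicate 4 had -2.36, while the other satiated hearts lay between -1.96 and -1.91. Leaving out fasted replicate 2 kept the Adamts7 call, and leaving out satiated replicate 4 did not give Adam1a a call.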

How the results depend on the processing

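The alternatives were 8 fits that left out 1 array each and 12 others. Over all genes 4065 were called, with 2488 to 3681 when 1 array was left out (lowest without satiated replicate 4, and 2514 without satiated replicate 2), 7159 with the slide as a block, 6474 with the replicate number as a block, 2210 without a filter on dim probes, 1868 on slide 1 and 1 on slide 2. Members called numbered 11, with 8 to 13 when 1 array was left out, 17 with either block, 7 on slide 1 and 0 on slide 2. Of them 4 were higher (4 to 5 when 1 array was left out, 0 on slide 2) and 7 lower (4 to 8 when 1 array was left out, lowest without satiated replicate 3 or 4, 11 with either block, 4 without the filter, 4 on slide 1 and 0 on slide 2). The replicate block ended none of the 11 calls and made 6 more. Regulators passing numbered 0, with 0 to 0 when 1 array was left out, 1 without the filter, 4 with the slide block and 3 with the replicate block. Convertases and plasminogen genes passing numbered 3, with 0 to 2 when 1 array was left out, 1 with median centring, 1 with the authors' ratios, 1 on slide 1, 0 on slide 2, 0 without the filter and 5 with either block. Related metalloproteinases passing numbered 2, with 2 to 3 when 1 array was left out, 4 with the slide block, 0 on slide 1 and 0 on slide 2. Shed and cut proteins passing numbered 9, with 5 to 9 when 1 array was left out, 4 without the filter, 4 on slide 1 and 0 on slide 2.

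Named genes that changed sign were Adam19, Adam15 and Adamts4, none of them called. Adam19 (-0.0087) was 0.0524 with normexp, 0.0090 with quantile normalization, 0.0718 as the mean of its probes, 0.30 on slide 1, 0.20 with array weights and -0.2535 to 0.385 when 1 array was left out, positive without satiated replicate 2 or 4 or fasted replicate 2 or 3. Adam15 (0.0773) was -0.00647 on slide 1 and -0.0161 to 0.139 when 1 array was left out, lowest without fasted replicate 3. Adamts4 (0.381) was -0.139 on slide 1, -0.364 with array weights and -0.2498 to 0.917 when 1 array was left out, lowest without fasted replicate 3. None of these 3 genes passed under any of the alternatives. The cause was not tested. Normexp used median rather than mean spot signals, since the tables hold medians, a choice made after seeing the data. Adamts10 also lost its call with normexp (-0.28, limma adjusted p = 0.0919), as the mean of its probes (0.065) and without the filter (0.132), and Adam17 with median centring (0.0566), with the authors' ratios (0.0562) and without the filter (0.076). Mmp23 lost its call without the filter (0.0708). The median over negative controls was 28.5 to 30 for slide 1, while slide 2 had 136 to 150, and fewer probes were well above background on slide 2.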
